A study of Mus musculus with 8 samples.

Results

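The enteric nervous system genes examined here are 34 genes of enteric neurons and enteric glia, measured in RNA from small intestines that were taken from mouse embryos at E18.5. They were found on the array by gene name. All 34 had at least 1 probe, out of 36083 gene names on the array, and the brightest of their 42 probes represented each gene. The arrays compare 4 wild-type samples (Rfx6+/+, labelled control) with 4 homozygous mutants (Rfx6-/-, labelled Rfx6 KO). Mutants came from crosses of heterozygotes, which had been made by crossing mice with a floxed Rfx6 allele to CMV-Cre mice, a line in which a viral promoter drives Cre throughout the body. The labels name neither sex nor pooling of embryos, and do not say that the 8 samples came from separate litters, so p-values measure the spread between these samples.

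The enteric nervous system forms from neural crest cells that enter the gut wall before birth and give rise to neurons and glia of the myenteric and submucosal plexuses. Their survival and migration depend on the receptor kinase Ret, which binds GDNF through the co-receptor Gfra1, and on the endothelin receptor Ednrb. Rfx6, the deleted gene, is a transcription factor of endocrine cells of the gut epithelium and pancreas. These cells come from endoderm and not from neural crest, but share peptides, vesicle proteins and some marker genes with neurons. Whole intestine holds epithelium, muscle, nerve and blood cells, and in such bulk RNA fewer cells of a type and less RNA per cell cannot be told apart.

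Levels are log2 processed signals relative to the 75th percentile of each array, and differences are knockout minus control on that log2 scale. The share of probes well above background ran from 57.5% to 67.2%, and the 8 arrays were on 1 slide, scanned once. On that slide control array 1 and knockout arrays 2, 3 and 4 lay in row 1, and the other arrays in row 2. Slide row and group were thus partly tied. In row 1 the share ran from 62.8% to 67.2%, and in row 2 from 57.5% to 63.5%. Correlations across genes ran from 0.986 to 0.995 within a group and from 0.971 to 0.987 between groups. The intestinal genes Cdx1, Cdx2, Vil1 and Fabp2 and the enteric markers Elavl4 and Sox10 were well above background on all 8 arrays. The Rfx6 probe differed by 0.38 ± 0.29 (SE; limma adjusted p = 0.504). Where it lies relative to the deleted part is not given in the sources used here, so it does not check the labels.

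No tested member of the set of enteric neuron and glia genes changed past the threshold. Of the 34 genes, 31 passed the filter on dim probes, which asked for a probe that all 4 arrays of a group measured well above background. Of these 31, 0 passed an adjusted p of 0.05 (limma, adjusted over all 23282 genes tested), where 4.89% of all genes tested were called, 2.57% lower and 2.32% higher. Over all genes the calls were 47.4% higher; with median centring they were 68.3% higher. Among the 31 genes, 4 (12.9%) had an unadjusted p under 0.05, beside 20.5% of all genes. With slide row as a block, 0 of the 31 had an unadjusted p under 0.05 (limma). The share of all genes in that fit is not given here. The median difference of the 31 was 0.089, beside -0.051 over all genes, with 22 higher and 9 lower, where 39.5% of all genes were higher. Without control array 2 the median over the 31 genes was -0.00019, beside -0.046 over all genes. The single differences ran from -0.27 for S100b to 0.46 for Gfra1, and the smallest adjusted p was 0.149, for Th. The 95% interval of the difference lay inside 2-fold in both directions for 31 of the 31 genes and inside 1.5-fold for 23 of them.

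**Figure D1:**
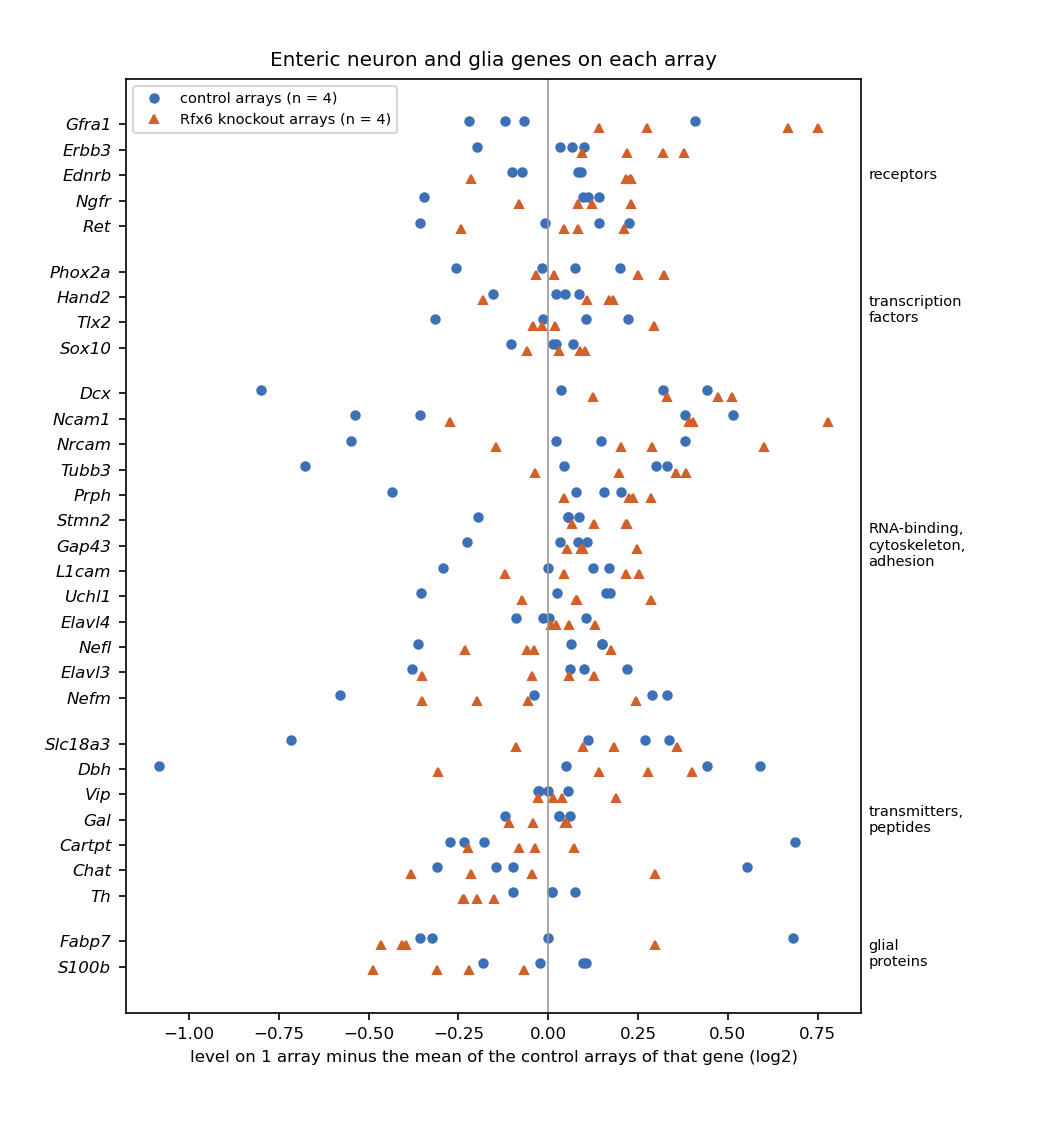
Level of each of the 31 genes on each array, minus the mean of the 4 control arrays of that gene (log2), with genes grouped by role; circles are control and triangles Rfx6 knockout arrays. Circles and triangles overlap for every gene but Th, whose 4 knockout values lie below its 4 control values.

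**Figure D2:**
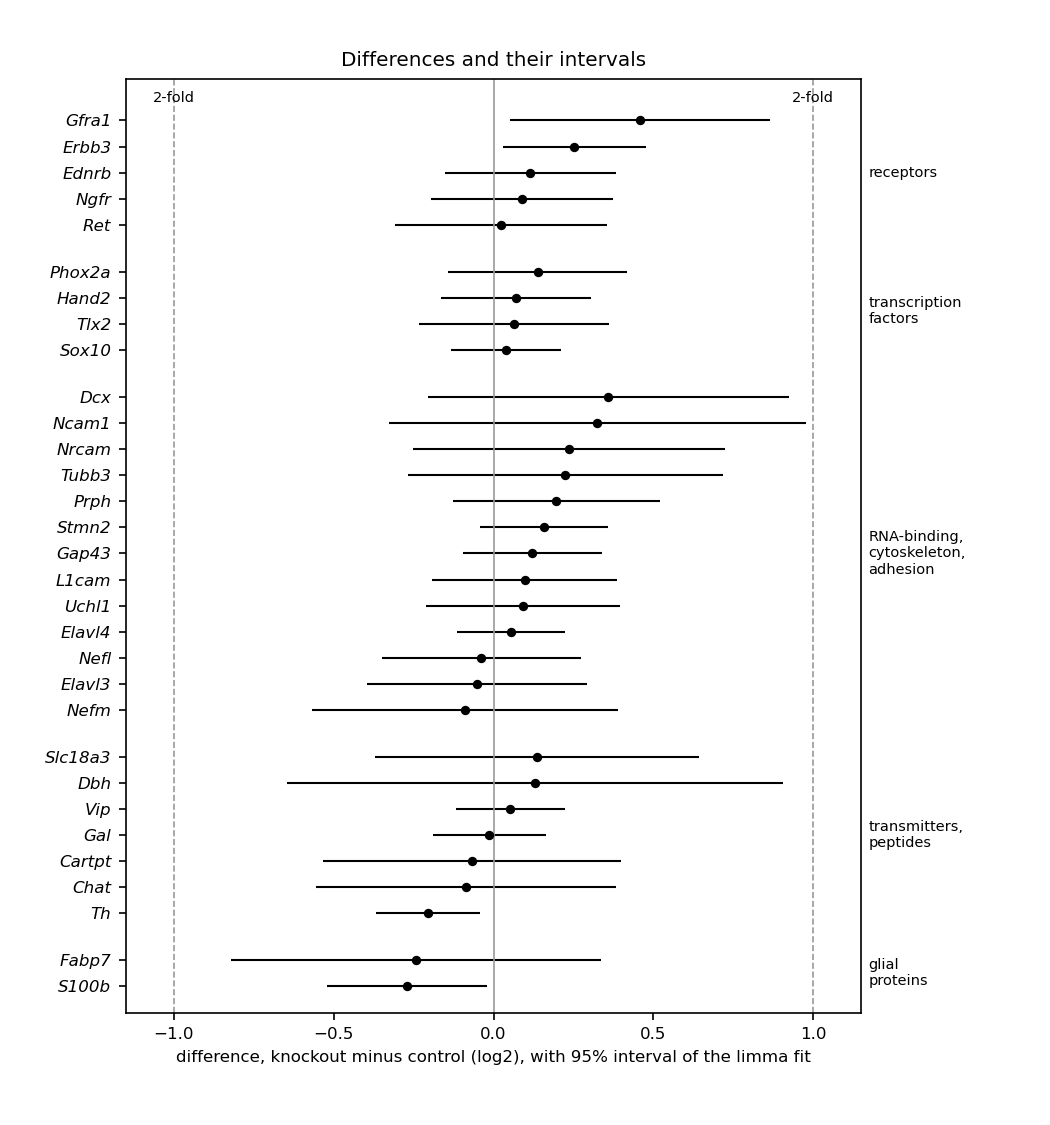
Difference between groups (log2, knockout minus control) for each of the 31 genes with its 95% interval from the limma fit; dashed lines mark a 2-fold difference. All intervals lie inside the dashed lines, and those of Gfra1, Erbb3, Th and S100b leave out 0.

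What the array read is shown for the genes on which the results turn: the 4 genes with an unadjusted p under 0.05, and the 3 with more than 1 probe well above background on every array. Each probe has 60 bases. The sequences below are as deposited, 5′ to 3′, in lower case, each preceded by its place on mm9 as the files give it; 3 probes are given whole and the others by their first 30 bases.
Th, chr7:150078703-150078762, minus strand: ccaggatggtcctgcattcctcctgccctt
S100b, chr10:75723783-75723842, plus strand: gaagctggacttgaggctttctaacttgca
Erbb3, chr10:128006424-128006483, minus strand: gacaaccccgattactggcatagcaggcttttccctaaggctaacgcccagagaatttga
Gfra1, chr19:58311604-58311663, minus strand: ccacaacttagaacagtttggattcaaggt
Ncam1, chr9:49351182-49351241, minus strand: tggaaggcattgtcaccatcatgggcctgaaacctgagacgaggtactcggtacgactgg
Ncam1, chr9:49323381-49323440, minus strand: ctgtgtattagtacagtccgtacaccatgt
Ncam1, chr9:49310320-49310379, minus strand: actttttactgagtgaaacatcaacaccac
Ednrb, chr14:104220870-104220929, minus strand: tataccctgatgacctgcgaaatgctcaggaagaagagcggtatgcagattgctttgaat
Ednrb, chr14:104214484-104214543, minus strand: aaggacgccccagatcttcaattttaagtt
Elavl4, chr4:109878558-109878617, minus strand: ctttaccaccttccttgaaggtgggtcttt
Elavl4, chr4:109877455-109877514, minus strand: gggaagaagcatattactgtgtccttctgt

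Among the 5 receptors, all differences were above 0 and none passed the threshold. The shared sign rested in part on control array 2: without it Ret (-0.095) and Ngfr (-0.027) were below 0. Ret stood at 0.22, -0.13, 0.37 and 0.45 on control arrays 1 to 4 and at 0.31, 0.44, 0.27 and -0.02 on knockout arrays 1 to 4. The groups overlapped across their whole range, with the lowest values on control array 2 and knockout array 4. Ret differed by 0.024 with a 95% interval from -0.31 to 0.35 (limma adjusted p = 0.943). Its co-receptor Gfra1 stood at -3.85, -4.32, -4.37 and -4.47 on the control arrays and at -3.59, -3.50, -3.98 and -4.11 on the knockout arrays. Control array 1 lay among the knockout values. Gfra1 differed by 0.46 ± 0.18 (SE; limma adjusted p = 0.193; exact permutation p = 0.0857). Under the alternatives the difference of Gfra1 ran from 0.060, with normexp background, to 0.59, without control array 1. Only 2 of the 4 control arrays measured it well above background, so it passed the filter through the knockout arrays, and a gene that passes in this way tends to be higher there.

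Erbb3, the neuregulin receptor of glia and Schwann cell precursors, stood at -2.83, -3.13, -2.90 and -2.86 on the control arrays and at -2.71, -2.61, -2.55 and -2.84 on the knockout arrays. Knockout array 4 alone lay among the controls. The difference was 0.25 ± 0.098 (SE; limma adjusted p = 0.192), and it ran from 0.11 to 0.32 under the alternatives. Ngfr, the p75 neurotrophin receptor carried by crest-derived progenitors, differed by 0.089, and Ednrb by 0.11. For Ednrb both probes had the same arrays at the low end: knockout array 4 and control arrays 1 and 2 were the lowest of the 8. The probe starting at base 1096 of the transcript differed by 0.20 and that at base 3288 by 0.11, neither past the threshold (limma adjusted p = 0.413 and 0.637 among all probes).

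The 4 transcription factors differed by 0.040 to 0.14, none past the threshold. Sox10, which marks enteric progenitors and glia, had a mean level of -0.76 ± 0.073 in the controls and of -0.72 ± 0.074 in the knockouts (SD, n = 4 each). Its difference of 0.040 had a 95% interval from -0.13 to 0.21, one of the narrower intervals in the set. Phox2a, a homeobox factor of autonomic and enteric neurons, differed by 0.14, Hand2 by 0.070 and Tlx2 by 0.064. Hand2 is needed for the later steps of enteric neuron differentiation and is also expressed in gut mesenchyme. Adjusted p-values of the 4 factors lay between 0.568 and 0.816 (limma).

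The 13 genes for RNA-binding, cytoskeletal, growth cone and adhesion proteins had 10 higher and 3 lower differences, with a median of 0.12. Elavl4, a neuronal RNA-binding protein known as HuD, varied least among them, with means of 0.98 ± 0.080 in the controls and 1.03 ± 0.055 in the knockouts (SD, n = 4 each). Its second probe, starting at base 1818, differed by 0.13 where the first differed by 0.055; neither passed (limma adjusted p = 0.434 and 0.730 among all probes). The order of the arrays was not the same on both Elavl4 probes: knockout array 4 was the highest of the 8 at base 1818 and the second lowest knockout at base 2921. The paralogue Elavl3 differed by -0.052. The growth-associated genes Stmn2 and Gap43 differed by 0.16 and 0.12. Stmn2 stood at 1.88, 1.63, 1.91 and 1.88 on control and at 2.04, 2.04, 1.89 and 1.95 on knockout arrays. Knockout array 3 alone lay below a control value, that of control array 3, and the exact permutation p was 0.0571 (limma adjusted p = 0.357).

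Tubb3, the neuronal beta-tubulin, stood at 0.38, -0.34, 0.67 and 0.64 on the control arrays and at 0.69, 0.72, 0.53 and 0.30 on the knockout arrays. Control array 2 was the lowest of the 8, and the other 3 control values spanned nearly the same range as the knockouts. The difference of 0.23 (limma adjusted p = 0.598) was -0.00019 without control array 2. Uchl1 stood at 0.42, 0.041, 0.56 and 0.57 on control and at 0.48, 0.68, 0.47 and 0.32 on knockout arrays, with its lowest values on the same pair of arrays. This ubiquitin hydrolase is abundant in neurons and found in endocrine cells too. The intermediate filament genes Prph, Nefl and Nefm differed by 0.20, -0.038 and -0.089, with adjusted p-values from 0.480 to 0.899 (limma). The adhesion genes Nrcam and L1cam differed by 0.24 and 0.097. Without control array 2 the difference of Nrcam was 0.053 and the difference of Prph was 0.052. Dcx, a microtubule protein of young neurons, differed by 0.36 (limma adjusted p = 0.458) on 1 probe that passed the filter through the knockout arrays, being well above background on 3 of 4 controls; no array measured its other 2 probes well above background. The difference of Dcx was 0.093 without control array 2 and 0.098 with normexp background.

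Ncam1 was the member whose probes disagreed most. The brightest probe, starting at base 6856 of its transcript, stood at 1.80, 1.62, 2.54 and 2.67 on control and at 2.56, 2.93, 2.55 and 1.88 on knockout arrays. The probe at base 2012 stood at -2.87, -1.05, -2.20 and -2.21 on control and at -2.08, -1.75, -2.14 and -2.54 on knockout arrays. Control array 2 was thus the lowest of the 8 on the first probe and the highest on the second, while knockout array 4 was lowest among the knockouts on both. The difference was 0.33 ± 0.29 (SE) on the first and, on the second, -0.046 ± 0.35 (SE; limma adjusted p = 0.580 and 0.957 among all probes). The third probe, at base 4688, was well above background on 3 of the 8 arrays, all of them knockouts, and was not tested. The difference of Ncam1 on its brightest probe was 0.15 without control array 2. The files place the brightest probe and the other 2 on different transcript records of the gene, and whether the probes read different isoforms was not tested.

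**Figure D3:**
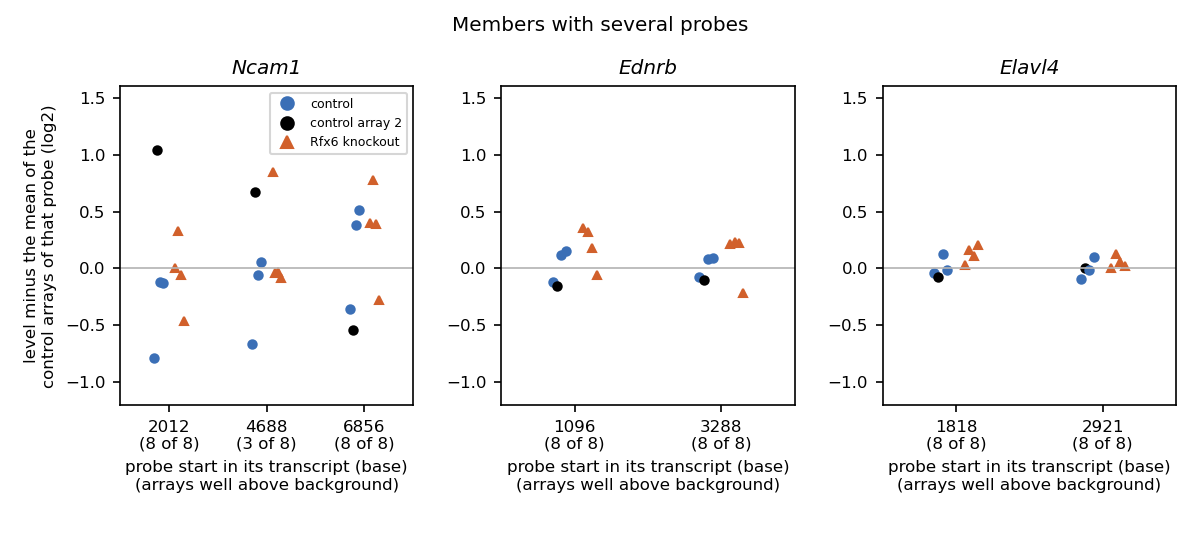
Level of each probe of Ncam1, Ednrb and Elavl4 on each array, minus the mean of the control arrays of that probe (log2), by where the probe starts in its transcript; circles are control arrays, black for control array 2, and triangles are knockout arrays. For Ncam1 the black point is the highest at base 2012 and the lowest at base 6856, while the group differences of both probes of Ednrb, and of both probes of Elavl4, share a sign.

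The transmitter and peptide genes were measured in 7 of 9 cases. Vip, the peptide of inhibitory and secretomotor neurons, ranged from -0.22 to -0.14 on control and from -0.22 to -0.0041 on knockout arrays. It differed by 0.053 with a 95% interval from -0.12 to 0.22. Gal, for the neuropeptide galanin, stood at 1.24, 1.08, 1.27 and 1.24 on control and at 1.25, 1.097, 1.26 and 1.17 on knockout arrays. Its difference was -0.013, with a 95% interval from -0.19 to 0.16 (limma adjusted p = 0.942). Cartpt, for the CART peptide, stood at 0.17, 0.11, 0.073 and 1.03 on control and at 0.42, 0.12, 0.27 and 0.31 on knockout arrays. Control array 4 alone was high, and the difference was -0.067 with it and 0.16 without it. On the same arrays Cck, a peptide hormone gene of gut endocrine cells, fell by 5.16 on the log2 scale (limma adjusted p = 8.5e-09).

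Th, the rate-limiting enzyme of catecholamine synthesis, was the single member whose groups did not overlap, 1 of 31 (3.23%) where 14.7% of all genes tested did not overlap. It stood at -0.35, -0.24, -0.17 and -0.24 on control and at -0.48, -0.49, -0.40 and -0.45 on knockout arrays. The difference was -0.21 ± 0.071 (SE; limma adjusted p = 0.149; exact permutation p = 0.0286, the smallest that 4 against 4 arrays can give). It did not pass in any of 19 alternatives, with adjusted p-values from 0.0806 to 0.489. Dbh, the enzyme that turns dopamine into noradrenaline, differed by 0.13 (SE 0.34); control array 2, at -3.95, was not well above background. The markers of sympathetic and adrenal medullary cells, 7 of 8 tested, had 0 called, where 4.89% of all genes tested were. Their median difference was 0.011, but single differences ran from -0.39 to 0.67, with 4 higher and 3 lower.

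Chat and Slc18a3 make and load acetylcholine, and Slc18a3 lies within the Chat gene. Chat stood at -2.97, -2.27, -2.92 and -3.13 on control and at -3.20, -2.86, -3.04 and -2.52 on knockout arrays. Slc18a3 stood at -0.70, -1.52, -0.54 and -0.47 on control and at -0.71, -0.45, -0.62 and -0.90 on knockout arrays. On control array 2 and on knockout array 4, Chat was at its highest in the group and Slc18a3 at its lowest. Neither differed between groups past the threshold, with differences of -0.086 and 0.14 (limma adjusted p = 0.843 and 0.763). Nos1, the enzyme of nitric oxide neurons, and Calb2, the calcium-binding protein calretinin, were well above background on 1 of 8 arrays each, knockout array 3 and control array 1, and were not tested.

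The glial proteins were fewer. S100b, a calcium-binding protein of glia, stood at -0.034, -0.043, -0.32 and -0.16 on control and at -0.36, -0.45, -0.63 and -0.21 on knockout arrays. Knockout array 4 lay among the controls. The difference was -0.27 ± 0.11 (SE; limma adjusted p = 0.212; exact permutation p = 0.0571), and the adjusted p ran from 0.122 to 0.418 under the alternatives. Fabp7, a fatty acid-binding protein of glia and their progenitors, stood at 0.87, 1.55, 0.51 and 0.55 on control and at 0.47, 0.41, 0.46 and 1.17 on knockout arrays. Control array 2 and knockout array 4 stood above the rest of their groups, and the difference was -0.24 (limma adjusted p = 0.627). The difference of Fabp7 was -0.016 without control array 2. Gfap, the filament protein of mature glia, had 3 probes; 1 of them was well above background on control array 3 and knockout array 1, and the other 2 on no array.

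Many of the members, mostly neuronal genes, varied together from array to array within each group. The mean of 25 enteric neuron members was lowest on control array 2 (-0.82) and knockout array 4 (-0.54). The mean of 6 glia and progenitor members ran from -0.22 to -0.13 on control arrays, lowest on control array 3. On the knockout arrays it ran from -0.22 to -0.16, highest on knockout array 4. Control array 2 held the lowest control value for 23 of the 31 genes (74.2%), where it was lowest for 36.5% of all genes. Knockout array 4 held the lowest knockout value for 16 of the 31 (51.6%), beside 26.5% of all genes. For 15 genes, Ret, Tubb3, Uchl1, Ncam1, Nrcam, Slc18a3, Phox2a, Elavl3, Ngfr, Ednrb, Erbb3, Dcx, Nefm, Dbh and Vip, both held, or 48.4% beside 18.1% of all genes. Chat and Fabp7 did the opposite and were highest on both. The median deviation of the 31 genes from their group mean was -0.26 on control array 2 and -0.081 on knockout array 4, where the median over all genes was -0.011 and 0.039. This was seen in the data and is given as a description, with no test.

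**Figure D4:**
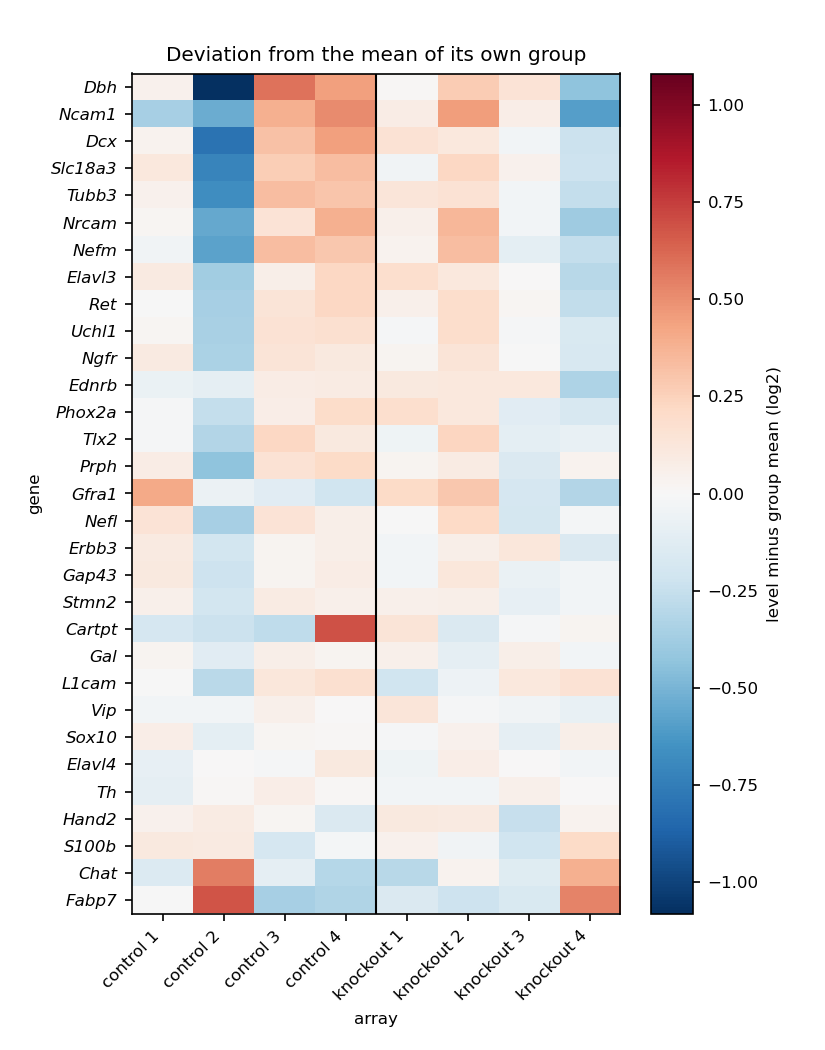
Level of each of the 31 genes on each array minus the mean of its own group (log2), with genes ordered by their mean deviation on control array 2 and knockout array 4. Those columns are blue for most neuronal genes, down to Dbh on control array 2, and red for Chat and Fabp7.

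Other tissue markers moved with these arrays. The mean of 10 smooth muscle genes was lowest among the controls on control array 2 (2.97) and next on control array 1 (3.07). On control arrays 3 and 4 it was 3.29 and 3.28. It was highest on knockout array 2 (3.58), and on knockout array 4 it was 3.30, near the lowest knockout value of 3.26. The mean of 4 mesothelium genes was 0.34 and 0.35 on control arrays 1 and 2 and 0.63 on knockout array 4, the highest of their groups, where the lowest arrays stood at -0.46 and -0.35. Control arrays 1 and 2 and knockout array 4 also carry the lowest numbers in the sample titles. What those numbers stand for is not stated, and their part in these values was not tested. None of the smooth muscle or mesothelium genes was called between groups, where 4.89% of all genes tested were. The 10 smooth muscle genes were all higher, and differences of the 4 mesothelium genes ran from -0.70 to 0.65. Control array 2 was also the lowest control for Vil1 (5.95), Cdx1 (5.08), Cdx2 (4.24) and the endocrine list mean (1.26), but not for Fabp2. It had the most spots flagged as outliers (355). Knockout array 4 had the fewest (153) and the highest share of probes well above background (67.2%). The part of these tissues and array measures in the spread of the neuronal genes was not tested. Without both arrays, the median difference of the 31 genes was 0.030, beside -0.062 over all genes. Of the 31, 0 were called and 5 had an unadjusted p under 0.05. The share of all genes at that unadjusted p in this fit is not given here.

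Genes outside the 34 were read from lists of related genes. Of 36 other enteric neuron genes, among them vesicle proteins and cholinergic receptors, 30 were tested and 0 were called (limma), with a median difference of 0.095, 22 higher and 8 lower. At an unadjusted p under 0.05 there was 1, Snap25, a fusion protein of synaptic and endocrine vesicles, at -0.26 (limma adjusted p = 0.220). Over all genes tested, 4.89% were called and 20.5% had an unadjusted p under 0.05. Slc5a7, the choline transporter, differed by 0.37 (limma adjusted p = 0.389).

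Of 16 other glial and Schwann cell genes, 11 were tested and 2 were called, where 4.89% of all genes tested were. Gfra3, the co-receptor for artemin, stood at -0.53, -1.002, -0.49 and -0.63 on control and at -1.54, -1.30, -1.61 and -1.63 on knockout arrays. The groups did not overlap, and Gfra3 fell by 0.86 on the log2 scale (SE 0.13; limma adjusted p = 0.0077). Gfra3 was called in 18 of 19 alternatives and lost with the replicate number as a block (adjusted p = 0.0718). Fabp5, a fatty acid-binding protein also made in epithelia, rose by 0.87 ± 0.20 (SE; limma adjusted p = 0.0428), but was called in 8 of 19 alternatives. With 1 array left out, it was called only when that was knockout array 3, and the adjusted p otherwise ran up to 0.124. The myelin gene Mbp differed by 0.28, and its 3 probes gave -0.18, 0.28 and 0.65, of which the last passed in the fit of every probe (limma adjusted p = 0.0397).

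Of 25 genes for trophic ligands and other receptors, 22 were tested and 3 were called, where 4.89% of all genes tested were. Nrtn, for neurturin, a ligand that acts on Ret through Gfra2, stood at 2.89, 2.76, 2.73 and 2.72 on control and at 2.46, 2.43, 2.47 and 2.40 on knockout arrays. It fell by 0.33 ± 0.071 (SE; limma adjusted p = 0.0326), and was called in 7 of 19 alternatives, the adjusted p running up to 0.216. With 1 array left out, it was called only when that was control array 2. Gdnf, the ligand of Ret with Gfra1, differed by 0.17 (limma adjusted p = 0.417) and Gfra2 by 0.24. Bmp2, a growth factor of the bone morphogenetic family, rose by 0.39 (limma adjusted p = 0.0447) and was called in 6 of 19 alternatives, in none of them with 1 array left out. Shh, a signal of the gut epithelium, was well above background on 0 of 4 control and 4 of 4 knockout arrays. Shh was at least 2.01-fold higher (limma adjusted p = 4.7e-04), and it passed the filter through the knockout arrays. With a filter on all 8 arrays, 2 genes of this list were called. Levels of epithelial and stomach genes differ between these groups: 9 of 12 stomach genes were called higher, where 2.32% of all genes were. The list mean ran from -4.64 to -3.37 on control and from 1.41 to 2.10 on knockout arrays. Of the 12 genes, 4 were well above background on 0 of 4 control arrays, Atp4b on 1, and Tff1 and Gkn1 on 2. Those genes passed the filter through the knockout arrays, and the control mean includes their dim signals. The part of these epithelial and stomach differences in Shh, Bmp2, Fabp5, Nrtn and Gfra3 was not tested.

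The interstitial cells of Cajal, pacemaker cells that lie beside the myenteric plexus but do not come from neural crest, were read from 5 genes. All 5 were higher, with a median difference of 0.40, and 2 were called. Over all genes tested, 39.5% were higher and 4.89% were called. The 10 smooth muscle genes were likewise all higher, with a median difference of 0.23 and 0 called (limma), and their part in these values was not tested. Ano1, their chloride channel, stood at 2.11, 2.22, 1.99 and 2.11 on control and at 2.83, 2.68, 2.56 and 2.90 on knockout arrays, a rise of 0.64 ± 0.096 (SE; limma adjusted p = 0.0076). Ano1 was called in 19 of 19 alternatives. Kit rose by 0.40 (limma adjusted p = 0.0477) and was called in 8 of 19, and with 1 array left out only without knockout array 4. Both genes are also expressed by other cells, Ano1 in epithelia and Kit in mast cells.

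Genes that neurons share with endocrine cells gave a further set. Scg2, for the granule protein secretogranin II, stood at 1.08, 0.52, 1.17 and 0.95 on control and at -0.13, -0.030, -0.22 and -0.89 on knockout arrays, and fell by 1.25 (limma adjusted p = 0.0117). Syp, for synaptophysin, fell by 0.49 (limma adjusted p = 0.0098). Both calls were lost with the replicate number as a block, with adjusted p-values of 0.0545 for Scg2 and 0.0819 for Syp. Other granule genes of the same list were not called. Chga differed by 0.26, Chgb by 0.17 and Cpe by 0.12. Lower were Scg5 (-0.039), Pcsk1n (-0.079), Pcsk1 (-0.12) and Scg3 (-0.23). Of 22 endocrine genes 20 were tested and 8 were called, all lower, where 2.57% of all genes tested were called lower. The median difference was -0.18, with 6 genes higher and 14 lower, and 6 of the 8 called genes were peptide hormones. The list mean, which these hormone genes weigh on most, ran from 1.26 to 1.56 on control and from -0.79 to -0.77 on knockout arrays. Within each group Scg2, too, was lowest on control array 2 and knockout array 4. The members that endocrine cells are known to express as well, Uchl1 and Gal among them, had the differences given above, 0.092 and -0.013.

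**Figure D5:**
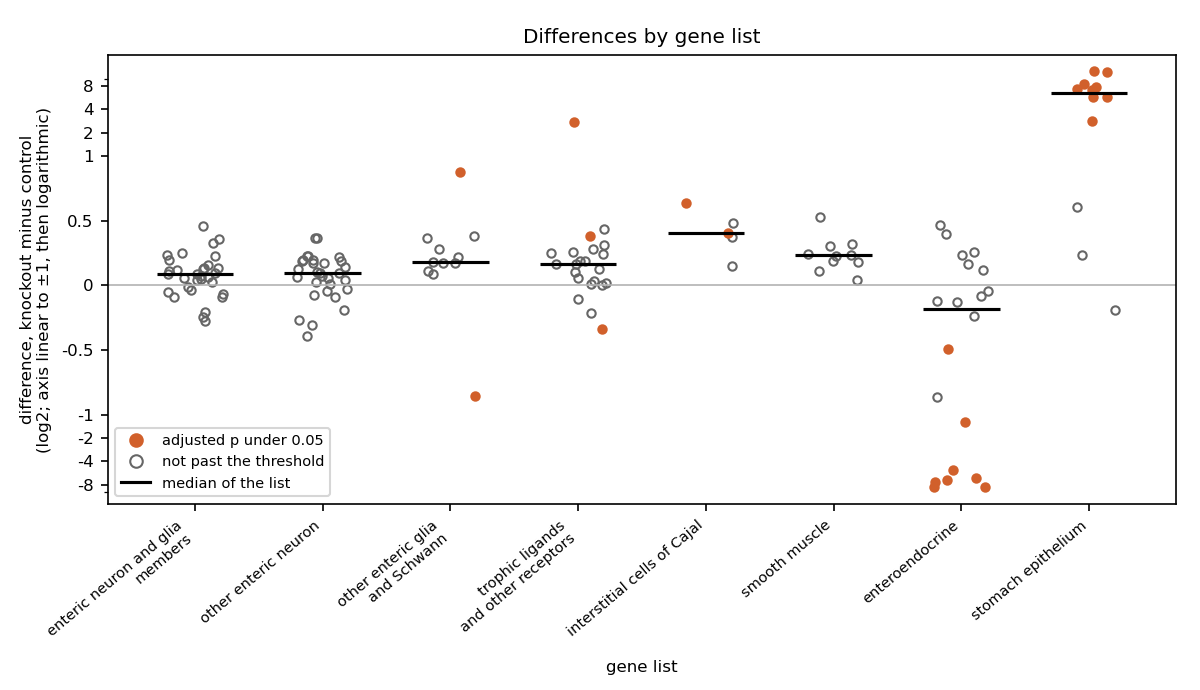
Difference between groups (log2, knockout minus control; the axis is linear to 1 in both directions and logarithmic beyond) for each tested gene of the 31 members and of 7 other lists; filled points passed an adjusted p of 0.05 in limma, and lines mark medians. The members and the other neuron genes hold no filled point, where the endocrine list has 8 and the stomach list 9.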

How the data were processed

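The authors' files are Agilent scanner files, 1 array per sample. Cyanine 3 cRNA was made from 100 ng of total RNA, per the labels' protocols. Feature Extraction 10.10.1.1 gave the deposited intensity of each spot, on a linear scale with background subtracted by the authors' software and unscaled between arrays, per the file headers and the submitters' processing notes; the probe grid was on mm9. The authors' series matrix holds intensities of the same spots, with scale and centring unstated.

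Control spots (3671 per array) and spots flagged as outliers (153 to 355) were left out, and repeat spots were averaged, which left 55681 probes. Each log2 signal was set against the 75th percentile of its array. A probe was kept if all 4 arrays of a group measured it well above background. The probe with the highest mean signal represented each gene. Members were matched by the files' gene name only; other names were updated through a GRCm38 table. Groups were compared with limma 3.58.1 in R 4.3.3 (lmFit, eBayes), two-sided, with Benjamini-Hochberg adjustment over 23282 genes, and the fit was tested on simulated data. Genes not well above background in a group are given as a bound, against the higher of the dim probe's signal and the lowest signal well above background on each array. Precision is limited by the number of arrays.

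Members and lists were chosen with earlier results of these data known. Named genes are the 34 members, called genes of the lists whose groups do not overlap, and up to 5 others per list. Gdnf, Gfra2, Cck, Chga, Chgb, Cpe, Scg5, Pcsk1n, Pcsk1, Scg3 and the stomach genes were named outside that rule with their values known. The alternatives were normexp background (offset 50), the series matrix values, median centring or quantile normalization, no filter, a filter on all 8 arrays, averaging the probes of each gene, blocks for replicate number and slide row, array weights and leaving out each array. Leaving out control array 2 and knockout array 4 together was chosen after the data were seen.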

Additional observations from a re-analysis of the deposited data

Results flagged for a closer look

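Among 116 groups of 4 arrays, covering the tested members and 27 named genes of the other lists, 7 had 1 array far from the other 3 (6.03%); chance gives about 1 in 20, or 5.8, and genes on 1 array are not independent. On control array 2, Gal stood at 1.08 (others 1.24 to 1.27), Ngfr at 0.10 (0.55 to 0.59) and Stmn2 at 1.63 (1.88 to 1.91), all low. On knockout array 4, Ednrb was low at 1.24 (1.67 to 1.68) and Fabp7 high at 1.17 (0.41 to 0.47). Cartpt was high on control array 4, at 1.03 (0.073 to 0.17). Bdnf, a neurotrophin, was high on knockout array 1, at -1.38 (-2.59 to -2.43).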

How the results depend on the processing

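No member was called in any of the 19 alternatives, and the lowest adjusted p was 0.0806 (limma). Among 586 member values, 40 had the other sign, in 15 genes, none called: 22 with 1 array left out, given as ranges in the next paragraph, and 18 others. Those 18 were Gal with normexp (0.0088), quantile normalization (0.027), median centring (0.051) and the series matrix (0.050); Elavl3 (0.012) and Nefl (0.026) with median centring; Cartpt with slide row (0.039); with array weights Dbh (-0.11), L1cam (-0.0016), Ret (-0.035), Tlx2 (-0.030) and Slc18a3 (-0.014); and without both control array 2 and knockout array 4 Dbh (-0.088), Sox10 (-0.015), L1cam (-0.052), Ret (-0.0063), Tlx2 (-0.015) and Slc18a3 (-0.026).

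Leaving out 1 array gave ranges that cross 0 for Nefm (-0.28 to 0.021), Gal (-0.053 to 0.019), Elavl3 (-0.18 to 0.047), Nefl (-0.16 to 0.026), Cartpt (-0.16 to 0.16), Ngfr (-0.027 to 0.15), Uchl1 (-0.026 to 0.15), Chat (-0.21 to 0.098), Dbh (-0.23 to 0.32), Tubb3 (-0.00019 to 0.34), L1cam (-0.00030 to 0.17), Ret (-0.095 to 0.11), Tlx2 (-0.042 to 0.14), Slc18a3 (-0.10 to 0.25), and for Bdnf, which is no member (-0.020 to 0.39).

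Over all genes, 599 were called lower and 540 higher. Median centring gave 252 lower, array weights 1085 lower, and no filter 201 lower and 297 higher; the cause was not tested. When any single array was dropped, between 232 and 590 genes were lower and between 347 and 513 higher. Lower calls moved by over 1.5 times without control arrays 1 (240), 3 (310) and 4 (356) and knockout arrays 1 (244) and 2 (232), and higher calls without control array 1 (352) and knockout arrays 1 (352) and 2 (347). Of the trophic list's 3 calls, 1 was made with median centring, no filter, slide row and without both arrays, and 1 to 2 with 1 array left out. Of the glial list's 2 calls, 1 was made with slide row and without both arrays, and 1 to 2 with 1 array left out.

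Arrays with the same replicate number showed no shared deviation (correlations -0.068, -0.17, 0.070 and -0.41). Of the 8 arrays, 0 correlated best with their own number, and the samples share only that number. The sample titles carry other numbers, none the same in both groups, and arrays were not compared by these. Under the replicate block 148 genes were lower and 266 higher, 0 of the glial list and 1 of the trophic list were called, and 0 members.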
